A study of Rattus norvegicus with 10 samples.

Results

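The genes described here encode the proteins of the mitochondrial ribosome in rat muscle. They are the protein-coding entries of the deposited gene table whose name starts with Mrpl or Mrps followed by a digit and whose mean over the 10 libraries was at least 1 CPM (counts scaled to a common library total). Of 32883 features in the table, 22250 were protein coding, 75 of these carried such a name and 73 reached the level. The exceptions were Mrpl36, with a mean of 0.680 CPM, and Mrps21l, with 0.319 CPM. The 10 muscle libraries, from Sprague Dawley rats, are 4 of group NC (numbered 4, 5, 6 and 7), 3 of group MPS (10, 11 and 14) and 3 of group TZG (26, 27 and 43). MPS is myofascial pain syndrome, in which tender, hardened points form in muscle, and the titles call TZG a drug in a series about Tianhe Zhuifeng liquid extract, a herbal preparation. NC and TZG are not spelled out, and the labels give no muscle, dose, time or age and do not say how MPS was produced or whether the TZG rats had it. They do not state either that the libraries came from separate animals, so p-values reflect only how these libraries vary, which may be technical.

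Mitochondria keep a small genome that encodes core subunits of the respiratory chain, and a ribosome of their own translates it. The ribosomal RNAs of that ribosome come from the mitochondrial genome, whereas every one of its proteins is encoded in the nucleus, made in the cytosol and imported. It consists of a small subunit, which holds the messenger and decodes it, and a large subunit, which joins the amino acids. Some of its proteins descend from bacterial ribosomal proteins and others were added in the mitochondrion. Skeletal muscle is rich in mitochondria, more so in slow and oxidative fibres than in fast glycolytic ones. The names follow the subunits (Mrpl for large, Mrps for small) with exceptions. Mrps18a and Mrps30 sit in the large subunit, and the product of Mrps36 is now known as a subunit of the 2-oxoglutarate dehydrogenase complex and not of the ribosome. With these placed by structure, 46 members belong to the large subunit, 26 to the small subunit and 1 to neither. By ancestry, 42 have a bacterial counterpart and 30 are specific to mitochondria.

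The library labelled MPS 14 stood apart from the other 9. Its summed level of 11 lymphoid markers was 7778 CPM, against 2.92 to 21.2 CPM elsewhere, and that of 7 fast fibre markers was 3688 CPM against 60620 to 113500 CPM. Glycam1, a mucin-like protein of lymph node vessels, was at 1560 CPM there and at 0 in the others. Over 13129 genes with a mean of at least 1 CPM, the median r of MPS 14 with the rest was 0.602, and r among the rest was 0.897 to 0.975; this describes the libraries across genes, which are not replicates. Over the 73 members the same values were 0.547 and 0.796 to 0.979. Every comparison is therefore given with and without MPS 14. Total counts per library ran from 12616160 to 18179144. In whole tissue, fewer cells of a type and less RNA per cell cannot be told apart.

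Every member was measured with at least 61 counts in each library, and all 73 entered the test. Levels between genes are compared as FPKM, which divides by gene length. By mean FPKM over the 10 libraries, Mrpl54, a mitochondria-specific protein of the large subunit, came first with 229 ± 134 (SD, n = 10). Mrpl33 followed with 144 ± 37.8 FPKM, Mrpl53 with 126 ± 29.4, Mrpl23, which in bacteria lines the exit of the peptide tunnel, with 114 ± 26.2, and Mrpl27, which in bacteria reaches toward the site of peptide bond formation, with 99.4 ± 32.8. The SDs of these 5 overlap from each to the next. All 5 belong to the large subunit. At the other end stood 3 proteins of the small subunit: Mrps27, which carries pentatricopeptide repeats, with 8.26 ± 1.89 FPKM, Mrps10 with 6.91 ± 2.05 FPKM, and Mrps2 with 2.16 ± 0.635 FPKM. The deposited length of Mrps2 is 6007 bases, the longest of the members, against a median of 1167, and it overlaps the gene RGD1306233, so its level is uncertain. The summed CPM of the small subunit members was 0.450 to 0.489 of that of the large subunit members in the 9 libraries other than MPS 14, and 0.535 in MPS 14.

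**Figure D1:**
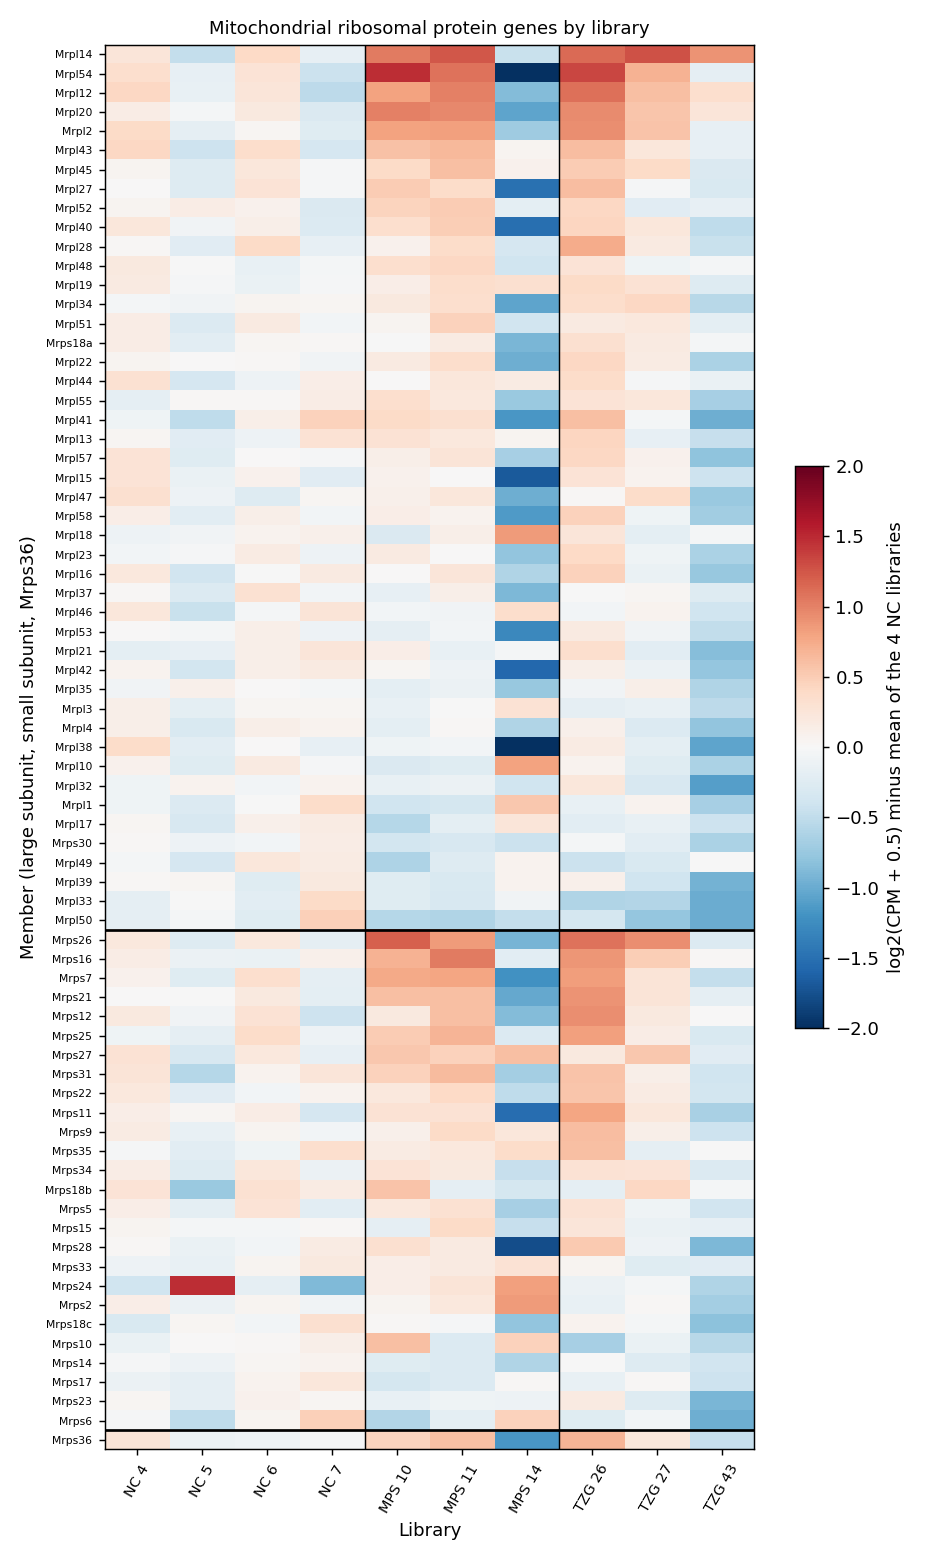
Each row is a member and each column a library; colour gives log2(CPM + 0.5) minus the mean of the 4 NC libraries, from -2 (blue) to 2 (red), with members grouped by subunit and ordered by their values. Mrpl14, Mrpl54 and Mrpl20 are red in MPS 10, MPS 11 and TZG 26, and MPS 14 is blue for most members and red for a few.

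Added up, the messages of the mitochondrial ribosome were lowest in MPS 14 and highest in TZG 26 under each scaling tried. By library totals, the sum of the 73 members was 3304, 2787, 3266 and 3088 CPM in NC 4, 5, 6 and 7. It was 3641, 3733 and 2160 CPM in MPS 10, 11 and 14, and 4073, 3257 and 2307 CPM in TZG 26, 27 and 43. MPS 10, MPS 11 and TZG 26 exceeded every NC library, TZG 27 lay among them, and MPS 14 and TZG 43 lay below all of them. Transcripts of the mitochondrial genome took 18.7% to 30.1% of counts in NC, 25.6% and 21.4% in MPS 10 and 11, 9.71% in MPS 14, and 18.7%, 25.4% and 38.6% in TZG 26, 27 and 43. With these transcripts left out of the totals, the sum of the members was 4375, 3989, 4017 and 4266 CPM in NC 4, 5, 6 and 7. On the same basis it was 4894, 4751 and 2392 CPM in MPS 10, 11 and 14, and 5009, 4367 and 3756 CPM in TZG 26, 27 and 43. MPS 10, MPS 11 and TZG 26 then again lay above all NC libraries, and TZG 43 below them. The place of TZG 43 and TZG 27 turned with the TMM factors used in the fits. On that scale the sum was 3148, 2831, 2682 and 2885 normalised CPM in NC 4, 5, 6 and 7, 3909, 4342 and 1239 in MPS 10, 11 and 14, and 4912, 3532 and 3317 in TZG 26, 27 and 43. All TZG libraries then lay above all NC libraries, as did MPS 10 and 11. These sums were described by library and not tested.

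**Figure D2:**
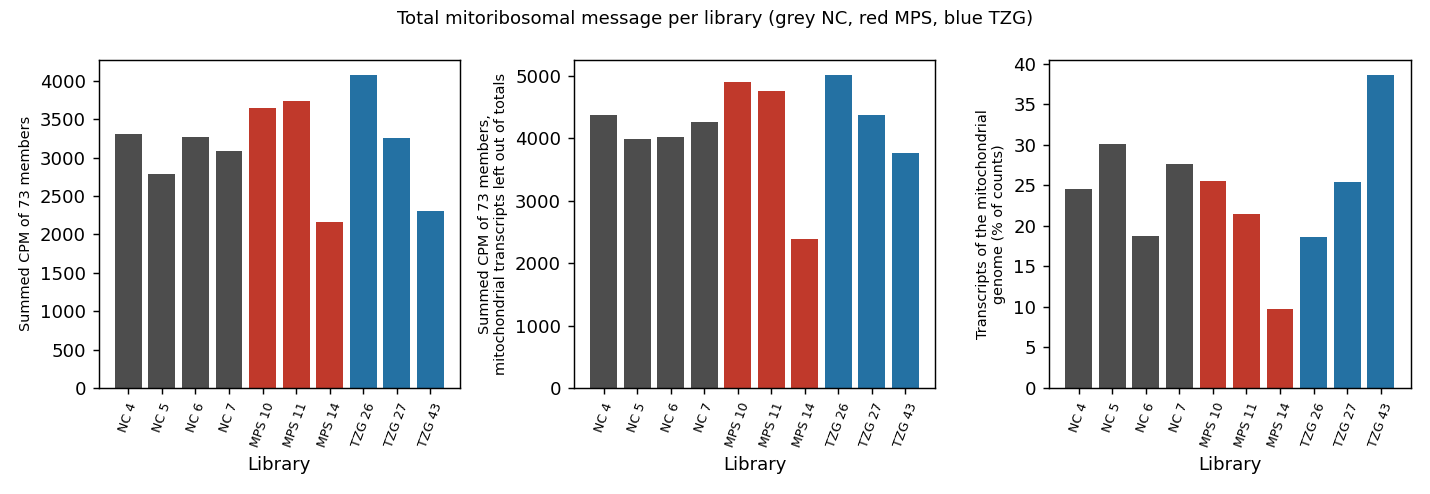
Bars give, for each library, the summed CPM of the 73 members (left), the same with mitochondrial transcripts left out of the totals (middle) and the percent of counts from the mitochondrial genome (right). MPS 14 is the lowest library in the left and middle panels at 2160 and 2392 CPM; TZG 43, below NC in both, lies above NC with TMM factors (not drawn) and has the highest mitochondrial share at 38.6%.

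In MPS 14, most members lay low, and how many lay high depended on the scaling. By library totals, 36 of the 73 members (49.3%) were lower there than in each of the other 9 libraries, 9 (12.3%) were higher than in each of them and 28 lay within their range. Of the 13535 genes tested, 16.5% were lower and 54.5% higher on that scale. With the TMM factors of the fit, 65 members (89%) were lower, 0 were higher and 8 lay within the range, against 33.1% lower and 34.2% higher over all genes tested. Mrpl54 was at 19.1 CPM, which was 15.4% of its median elsewhere; the other libraries ran from 72.8 to 273.7 CPM. Mrpl38, another mitochondria-specific protein of the large subunit, was at 10.6 CPM against 21.0 to 57.0. Both were lowest in MPS 14 with TMM factors too. Mrpl12, which forms the stalk that recruits translation factors, was at 42.1 CPM against 53.7 to 165.5, and at 24.1 normalised CPM against 50.2 to 199.6. Mrpl10, the base of that stalk, was at 56.3 CPM against 20.5 to 36.4, but at 32.3 normalised CPM it lay inside the range of 27.6 to 40.8. Relative to the members, the summed level of 86 cytosolic ribosomal protein genes was 33.8 times as high in MPS 14 and 4.28 to 9.55 times as high in the other 9 libraries.

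**Figure D3:**
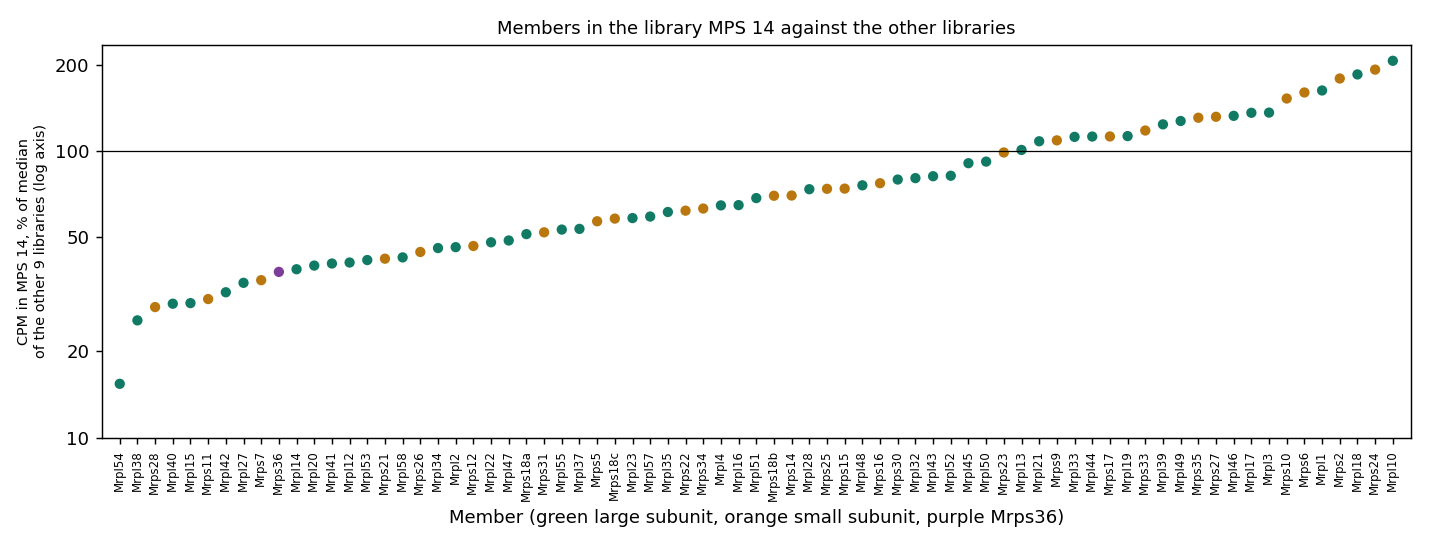
Each point is a member; the vertical axis (log scale) gives its CPM in MPS 14 as a percent of its median in the other 9 libraries, and the line marks 100%. By library totals, members run from Mrpl54 at 15.4% to Mrpl10 at 207.1%; with TMM factors no member is above its range in the other libraries.

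The comparison of MPS with NC asks which of these genes differ between muscle labelled MPS and muscle labelled NC. With all libraries, none of the 73 members passed an adjusted p of 0.05 in edgeR's quasi-likelihood test with Benjamini-Hochberg adjustment over 13535 genes. Over all genes tested, the percentage called was likewise 0 in each direction. No member had an unadjusted p under 0.05, where 1483 of the 13535 genes did. DESeq2 and limma-voom called 0 members as well, and 205 and 0 of all genes tested. Of the members, 47 were higher in MPS and 26 lower, with a median log2 fold change of 0.10, where the median of all genes tested was 0.13. The direction of the members was not stable: 30 were higher with limma-voom (median -0.09), 31 without MPS 10 (-0.07) and 23 without MPS 11 (-0.20), and with library totals 38 (52.1% in place of 64.4%) were higher. The smallest p belonged to Mrps27, with a log2 fold change of 0.52 ± 0.27 (SE; edgeR adjusted p = 0.492), and on the lower side to Mrpl50, with -0.60 ± 0.30 (edgeR adjusted p = 0.493). Only Mrps2 had no overlap between the groups, with all MPS libraries above all NC libraries, where 5.27% of all genes tested had none in that direction.

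Without MPS 14, with 2 MPS libraries against 4 NC libraries, 5 members rose and none fell. They were Mrpl14, Mrpl20, Mrpl54, Mrps16 and Mrps26. The share called higher over all 13719 genes tested was 2.06% and the share called lower was 0.321%. Of the members, 63 were higher in MPS and 10 lower, and the median log2 fold change was 0.46 against -0.02 for all genes. An unadjusted p under 0.05 was seen in 28 members, all of them higher. Over all 13719 genes tested, 2849 had such a p, 1662 of them higher. In 42 members both MPS libraries lay above all 4 NC libraries, where 20.1% of all genes tested did. The median was 0.51 in the small subunit and 0.37 in the large subunit. It was 0.42 in members with a bacterial counterpart and 0.48 in those specific to mitochondria. For the 2750 tested genes of 804 to 1647 bases, the lengths between the quartiles of the members, the median was 0.09. DESeq2 called 13 members higher and, in either direction, 1084 of all 13719 genes. With library totals in place of TMM factors 0 members passed, 48 members (65.8%) were higher in place of 63 (86.3%), and the median of all genes moved to -0.30, so that the members' median stayed 0.48 above it in both scalings. Without NC 5 or NC 7, none of the 5 passed. Without NC 6 Mrpl14 passed, and without NC 4 Mrpl14 and Mrpl20 did. Over all genes, 85, 2, 41 and 29 passed without NC 4, 5, 6 and 7, against 326 of 13719 with these libraries kept. Leaving out MPS 10 or MPS 11 keeps 1 MPS library, which is assumed to vary like the other groups. The members' median was then 0.56 without MPS 10 and 0.36 without MPS 11.

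**Figure D4:**
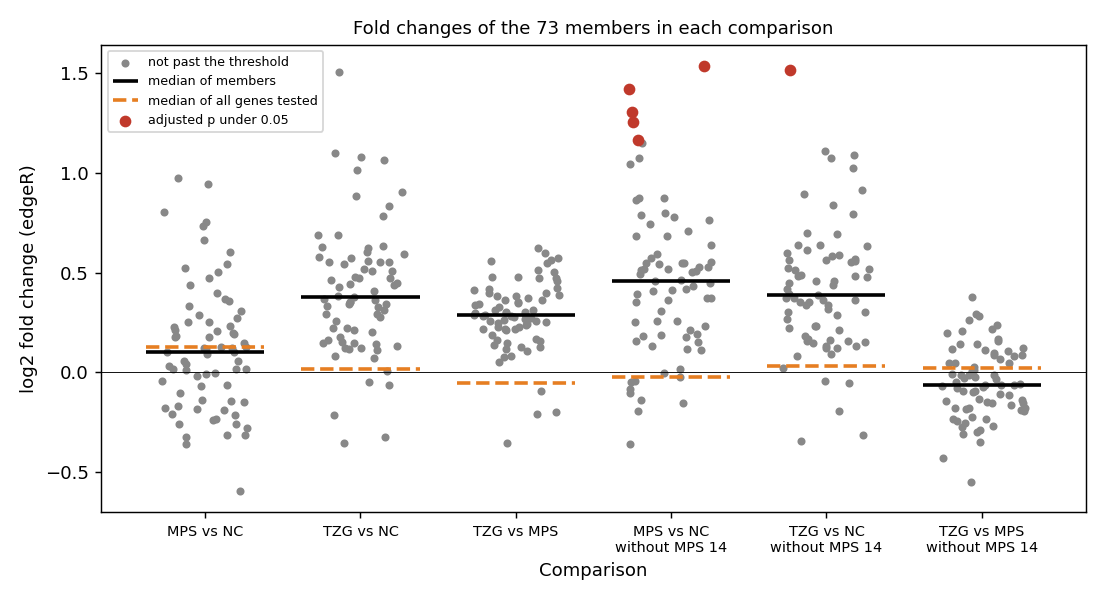
Each point is the edgeR log2 fold change of a member in the comparison named on the horizontal axis; black lines are medians of the 73 members, dashed lines medians of all genes tested, and red points passed an adjusted p of 0.05. Without MPS 14 the members' medians are 0.46 for MPS and 0.39 for TZG against NC, and -0.06 for TZG against MPS.

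Promoter stretches are printed for the members that rose and for Mrps18b because of the motifs they hold. RefSeq's promoter table (assembly GRCr8), which covers 250 bases before to 50 after each start, matched 58 of the 73 members. It was searched on both strands for letters bound by regulators known to act on nuclear genes of mitochondria: GCGC, any pair of bases and GCGC again for NRF1, CCGGAAG for the ETS family, which includes GABPA, and AAGATGGC for YY1. The motifs were chosen from general knowledge. Each line gives 30 bases of the gene's own strand with the match in capitals; Mrpl54 and Mrps16 held none of the motifs in this window.
Mrpl14, NRF1, chr9:22811215-22811244, minus strand: caccactggcGCGCAGGCGCagcgtgcagg
Mrpl20, ETS, chr5:171691217-171691246, plus strand: ctagaggcgacCCGGAAGacagtgcttgca
Mrps26, NRF1, chr3:138222343-138222372, plus strand: tccggacaggGCGCAGGCGCtagctgtcat
Mrps26, ETS on the opposite strand, chr3:138222330-138222359, plus strand: ctcctcgaccaCTTCCGGacagggcgcagg
Mrps18b, NRF1, chr20:2842976-2843005, plus strand: tccttgtccgGCGCATGCGCagtcgttctt
Mrps18b, ETS on the opposite strand, chr20:2842992-2843021, plus strand: gcgcagtcgttCTTCCGGcaggccgtacgt
Mrps18b, YY1, chr20:2843023-2843052, plus strand: ggatgtgcgacAAGATGGCtgcctccttgc

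Among the 58 members, 11 (19.0%) held the NRF1 letters, against 7.96% of 18999 promoters of protein-coding genes in the table. The ETS letters stood in 19 (32.8%) against 11.2%, and the YY1 letters in 14 (24.1%) against 3.92%. At least 1 of the motifs occurred in 33 members (56.9%) against 20.4%, and 10 (17.2%) against 2.61% held at least 2. Mrps18b alone held all 3, as did 0.137% of all promoters. The members' windows had a median of 18 CG pairs, against 12 over all promoters. In MPS against NC without MPS 14, the median log2 fold change was 0.46 for the members with the NRF1 letters and 0.43 for those without, 0.46 and 0.42 for ETS, and 0.24 and 0.52 for YY1. A match describes letters and not a binding site, and these values were not tested.

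The 5 members that rose in MPS without MPS 14 are given by library, as CPM normalised with TMM factors. Mrpl14, a large subunit protein that in human mitochondria docks the assembly factor MALSU1, is encoded on chromosome 9 at 17687622 to 17698569 of the files' own build, which is not given in the sources used here. It had 19.0, 11.9, 18.3 and 13.95 normalised CPM in NC 4, 5, 6 and 7, 37.7 and 46.9 in MPS 10 and 11, and 45.0, 44.8 and 45.7 in TZG 26, 27 and 43. All MPS and TZG libraries lay clear of all NC libraries, and the TZG libraries were close to each other. The means were 42.3 ± 6.51 (SD, n = 2) in MPS and 15.8 ± 3.40 (n = 4) in NC, a log2 fold change of 1.42 ± 0.21 (SE; edgeR adjusted p = 0.0143).

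Mrpl20, whose bacterial counterpart binds ribosomal RNA early in the assembly of the large subunit, lies on chromosome 5 at 173248245 to 173252775. Its values were 35.4, 32.3, 31.4 and 25.5 normalised CPM in NC, 72.6 and 76.3 in MPS 10 and 11, and 78.3, 54.0 and 57.4 in TZG. No MPS or TZG value reached down to the NC values. The log2 fold change of MPS over NC was 1.26 ± 0.20 (SE; edgeR adjusted p = 0.0171).

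Mrpl54, on chromosome 7 at 11321057 to 11323577, was the most abundant member per length. Its values were 110.7, 82.0, 91.7 and 64.1 normalised CPM in NC, 276.1 and 229.3 in MPS 10 and 11, and 281.4, 164.3 and 117.9 in TZG. MPS 10, MPS 11 and TZG 26 were far above NC, and TZG 43 was just above the highest NC library. By library totals TZG 43, at 86.5 CPM, lay within the NC range of 72.8 to 123.7 CPM. The log2 fold change of MPS over NC was 1.54 ± 0.32 (SE; edgeR adjusted p = 0.0359).

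In the small subunit, Mrps16 (chromosome 15, 4351292 to 4353694) is a protein of bacterial descent whose loss in humans causes a mitochondrial disease. It had 18.9, 16.4, 13.4 and 17.9 normalised CPM in NC, 31.4 and 43.2 in MPS 10 and 11, and 40.2, 27.6 and 26.2 in TZG, with no overlap with NC. By library totals TZG 43, at 19.2 CPM, lay within the NC range of 17.3 to 21.1 CPM. The log2 fold change of MPS over NC was 1.17 ± 0.23 (SE; edgeR adjusted p = 0.0351).

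Mrps26 (chromosome 3, 123093264 to 123094927) is specific to mitochondria. It had 29.8, 22.6, 25.8 and 22.3 normalised CPM in NC, 66.8 and 57.2 in MPS 10 and 11, and 69.7, 56.2 and 32.3 in TZG. TZG 43 again came close to the highest NC library while the other 4 libraries stood well above. By library totals TZG 43, at 23.7 CPM, lay below all NC libraries. The log2 fold change of MPS over NC was 1.3 ± 0.27 (SE; edgeR adjusted p = 0.0359). With counts adjusted for a trend on gene length in each library, Mrps16, Mrps26 and Mrpl54 no longer passed, with adjusted p of 0.0818, 0.0665 and 0.0744. With MPS 14 included, the log2 fold changes of the 5 ran from 0.74 (Mrps16) to 0.98 (Mrpl54), with edgeR adjusted p from 0.503 to 0.654.

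**Figure D5:**
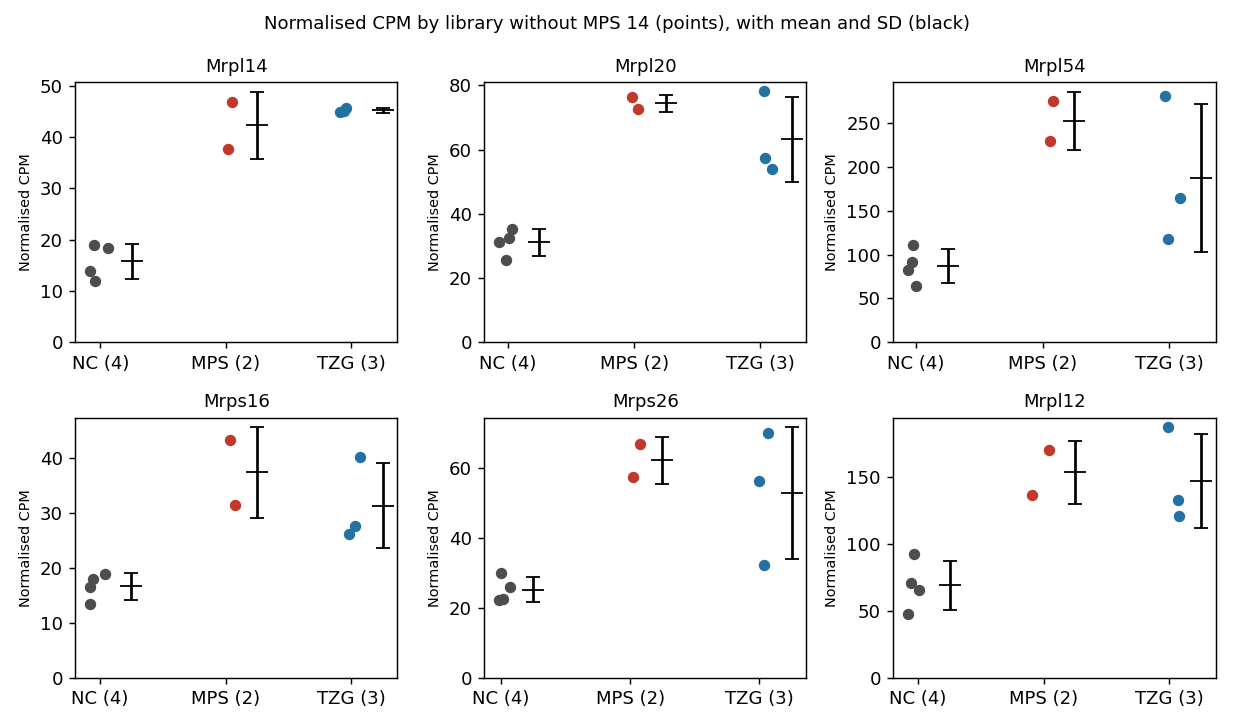
Points are TMM-normalised CPM in each library without MPS 14 for the 5 members that rose in MPS against NC and for Mrpl12; black bars give the mean and SD of 4 NC, 2 MPS and 3 TZG libraries. With these factors every MPS and TZG point lies above every NC point in all 6 panels. By library totals (not drawn), TZG 43 lies within the NC range for Mrpl54, Mrps16 and Mrpl12. For Mrps26 it lies below that range.

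Members with well described roles showed a spread of values in the same comparison. Mrpl12, the stalk protein that recruits translation factors and in human cells also binds the mitochondrial RNA polymerase, had 92.1, 65.7, 70.8 and 47.4 normalised CPM in NC and 136.6 and 170.1 in MPS 10 and 11. Its log2 fold change of 1.15 ± 0.27 missed the threshold (edgeR adjusted p = 0.0520). Mrps7, a protein of bacterial descent in the head of the small subunit, had 42.7, 35.4, 43.8 and 34.7 in NC and 76.7 and 84.6 in MPS 10 and 11. Both were higher in each MPS library than in any NC library. The log2 fold change of Mrps7 was 1.04 ± 0.26 (edgeR adjusted p = 0.0630), and its annotation overlaps that of Gga3 by 772 bases, so reads of the pair may be mixed.

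Apart from Mrps16, no role gene passed. In the small subunit, Mrps12, which lines the decoding centre, stood at a log2 fold change of 0.68 ± 0.28 (SE), and Mrps2 at 0.41 ± 0.21. Of the mitochondria-specific proteins of the small subunit tied to human disease, Mrps22 stood at 0.57 ± 0.23 and Mrps34 at 0.50 ± 0.18. In the large subunit, Mrpl3, which in bacteria helps to shape the peptidyl transferase centre, was at 0.19 ± 0.17. Mrpl44, which has an RNase III fold, was at 0.37 ± 0.23, Mrpl41 at 0.59 ± 0.33, and Mrpl58, a relative of the release factors built into the ribosome, at 0.37 ± 0.24. The edgeR adjusted p of these 8 ran from 0.153 (Mrps34) to 0.574 (Mrpl3). All 8 were positive.

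The 3 homologues of bacterial protein S18 take different places in the mitochondrial ribosome. Mrps18c holds the bacterial position in the small subunit and had a log2 fold change of 0.25 ± 0.23 (SE). Mrps18b sits elsewhere in the small subunit and had 0.46 ± 0.28. Mrps18a, in the large subunit, had 0.35 ± 0.19. Their edgeR adjusted p were 0.577, 0.377 and 0.310, so none passed. Mrps30, the other large subunit protein named for the small one, had -0.08 ± 0.19. Mrps36, the dehydrogenase subunit, had 0.79 ± 0.26 (edgeR adjusted p = 0.125).

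Few members pointed downward. Mrpl50, a mitochondria-specific large subunit protein, had 42.5, 49.3, 35.4 and 66.2 normalised CPM in NC, 36.5 and 38.9 in MPS 10 and 11, and 47.6, 32.4 and 36.8 in TZG. The groups overlapped, and the log2 fold change of MPS over NC was -0.36 ± 0.26 (edgeR adjusted p = 0.475). For Mrpl49, the least abundant member by counts, it was -0.19 ± 0.31 (edgeR adjusted p = 0.767).

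Markers of fibre types and of some other cells are given beside these results. The summed level of 8 slow fibre markers was 142.3 to 226.9 CPM in NC, 1683 and 3315 CPM in MPS 10 and 11, and 145.4, 3829 and 165.6 CPM in TZG 26, 27 and 43. Among them, Myl2 was at 0 in all NC libraries and in TZG 26 and 43. Without MPS 14, 3 of the 8 were called higher in MPS and 0 lower. Over all genes tested, 2.06% were called higher and 0.321% lower. Of 7 fast fibre markers, 1 was called higher, with sums of 60620 to 75100 CPM in NC, 85940 and 98100 in MPS 10 and 11, and 76040 to 113500 in TZG. Of 6 Schwann cell markers, 2 were called higher, with sums of 62.1 to 226.9 CPM in NC, 745 and 486 in MPS 10 and 11, and 56.4 to 197.5 in TZG. Of 7 fibroblast markers, 1 was called lower, with sums of 1315 to 2827 CPM in NC, 806 and 700 in MPS 10 and 11, and 782 to 3824 in TZG. None of 8 macrophage markers passed in edgeR. An unadjusted p under 0.05 was seen in 6 of them, all lower, and in 2849 of all 13719 genes tested. The macrophage sums were 207.4 to 482.4 CPM in NC and 98.6 and 79.4 in MPS 10 and 11. In TZG 26, 27 and 43 they were 176.5, 82.9 and 283 CPM. Of 5 adipocyte markers, 0 passed and 5 were higher in MPS, where 48.2% of all genes tested were higher. The adipocyte sums were 405.2 to 509.7 CPM in NC, 1045 and 505.3 in MPS 10 and 11, and 323 to 545.1 in TZG. TZG 26 had the highest sum of the members and also the highest sum of fast fibre markers, 113500 CPM. The part of these cells and fibre types in the members' values was not tested.

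The comparison of TZG with NC asks which members differ in muscle labelled TZG. It uses the same NC libraries as the comparison of MPS with NC, so the pair is not independent. With all libraries, 0 members passed in edgeR and 1, Mrpl14, had an unadjusted p under 0.05, where 762 of 13535 genes did. DESeq2 and limma-voom called 0 members too, and 52 and 0 of all genes tested. In edgeR the percentage of all genes called was 0 in each direction. Of the members, 68 were higher in TZG and 5 lower, and the median log2 fold change was 0.38 against 0.02 for all genes. For the 2695 tested genes of 804 to 1647 bases, the lengths between the quartiles of the members, the median was 0.155. With counts adjusted for a trend on gene length in each library, 58 members (79.5%) were higher, at a median of 0.29 against 0.03 for all genes. With TMM factors, all TZG libraries lay above all NC libraries in 23 members, where 9.18% of all genes tested did. This count was not made with library totals. With library totals in place of TMM factors, 35 members (47.9%) were higher in place of 68 (93.2%), while the median of all genes moved to -0.39 and the members' median to -0.01.

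Leaving MPS 14 out of the fit keeps the TZG and NC libraries. It changes the shared spread, the TMM factors and the genes tested (13719 in place of 13535). Mrpl14 then rose in TZG. Its means were 45.2 ± 0.438 normalised CPM (SD, n = 3) in TZG and 15.8 ± 3.40 (n = 4) in NC, a log2 fold change of 1.52 ± 0.19 (SE; edgeR adjusted p = 0.0284). The share called higher over all genes was 0.0437% and the share called lower was 0.00729%. Mrpl14 was the only member that passed, and 30 members had an unadjusted p under 0.05, all higher. Over all 13719 genes, 2602 had such a p, 1613 of them higher. DESeq2 called 12 members higher and, in either direction, 840 of all 13719 genes. The call on Mrpl14 ended without any single NC library and in a fit of only TZG and NC. Over all genes, 0, 0, 3 and 0 passed without NC 4, 5, 6 and 7, and 3 of 13057 with only TZG and NC. Without TZG 43, 6 members passed, namely Mrpl14, Mrpl2, Mrpl20, Mrpl54, Mrps16 and Mrps26. In that fit 239 of all 13546 genes passed.

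The other members called in MPS stood at log2 fold changes between 0.91 (Mrps16) and 1.11 (Mrpl54) in TZG over NC, with edgeR adjusted p from 0.0616 (Mrpl20) to 0.0944 (Mrpl54). The median was 0.49 in the small subunit and 0.36 in the large subunit. On the lower side, Mrpl33 had 52.8, 62.3, 44.5 and 76.8 normalised CPM in NC and 49.1, 45.1 and 45.5 in TZG. Its TZG values lay within the NC range, and the log2 fold change was -0.34 ± 0.20 (edgeR adjusted p = 0.372). Mrpl50 was at -0.31 ± 0.23 (edgeR adjusted p = 0.488). Within TZG the libraries were unequal: TZG 26 had the highest normalised CPM of Mrpl12, Mrps7, Mrpl54 and Mrps26, and TZG 43 the lowest of Mrps7, Mrpl54 and Mrps26.

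The comparison of TZG with MPS asks whether muscle labelled TZG differs from muscle labelled MPS. No member passed in edgeR, with or without MPS 14, and none had an unadjusted p under 0.05 in either fit. Over all genes, 722 of 13535 had such a p with MPS 14 and 609 of 13719 without it. DESeq2 and limma-voom called 0 members too. Over all genes, DESeq2 called 3 of 13535 with MPS 14 and 14 of 13719 without it, and limma-voom 0 in both. In edgeR with all libraries, the percentage of all genes called was 0 in each direction. Without MPS 14 it was 0.00729% higher and 0 lower. With all libraries, 69 members were higher in TZG, at a median log2 fold change of 0.29 against -0.05 for all genes. With library totals 37 (50.7% in place of 94.5%) were higher and the medians were 0.000244 and -0.54, and without TZG 26 48 were higher at a median of 0.08. Without MPS 14, 27 were higher and 46 lower, at a median of -0.06 against 0.02 for all genes. The sign of the members' median thus differed with and without MPS 14, but without MPS 14 it was not stable. That median was -0.29 and -0.165 with TZG 26 or MPS 10 also left out. It was 0.01, 0.05 and 0.01 with TZG 27, TZG 43 or MPS 11 also left out.

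In TZG against MPS without MPS 14, 1 member had all TZG libraries above both MPS libraries and 3 had them below, where 7.35% and 8.37% of all genes tested did. The 3 lower ones were Mrps2, Mrps24 and Mrpl33, at log2 fold changes of -0.27 ± 0.22, -0.31 ± 0.59 and -0.30 ± 0.23 (edgeR adjusted p = 0.970, 0.994 and 0.970). The higher one, Mrps17, a small subunit protein of bacterial descent, had 46.7, 47.8 and 46.8 normalised CPM in TZG and 36.1 and 41.4 in MPS 10 and 11. NC 7 had 47.2, and the log2 fold change was 0.28 ± 0.19 (edgeR adjusted p = 0.970). Mrps10 had 6.54, 8.86 and 8.51 in TZG and 14.8 and 8.49 in MPS 10 and 11, at -0.55 ± 0.28 (edgeR adjusted p = 0.970). Its value in MPS 10 was above that of the other 8 libraries. For the 5 members called in MPS, the log2 fold changes ran from -0.43 (Mrpl54) to 0.10 (Mrpl14).

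Among the partners of the mitochondrial ribosome, single genes rose in lists of assembly, import and regulation, where 2.06% of all genes tested were called higher. Without MPS 14, MPS against NC, 1 of 27 assembly genes rose: Rbfa, which binds the small subunit during its maturation, with 25.9 ± 4.77 normalised CPM in MPS (SD, n = 2) and 10.99 ± 1.94 in NC (n = 4), a log2 fold change of 1.24 ± 0.23 (SE; edgeR adjusted p = 0.0276). Of 16 genes of import and chaperones, 1 rose: Timm44, which anchors the import motor at the inner membrane, at 1.04 ± 0.20 (edgeR adjusted p = 0.0282). Of 9 nuclear regulators, 1 rose: Esrra, a nuclear receptor that acts on genes of energy metabolism, at 1.77 ± 0.31 (edgeR adjusted p = 0.0218). None of the genes of these lists fell. Of the 9 regulators, 5 were higher and 4 lower, at a median log2 fold change of 0.04. An unadjusted p under 0.05 was seen in 3 of them, where 2849 of all 13719 genes had one. Among the 4 lower ones, Gabpa, the DNA-binding subunit of an ETS regulator, stood at -0.60 ± 0.27 and Yy1 at -0.53 ± 0.29, and neither passed.

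No gene passed in edgeR among 16 translation factors (1 with an unadjusted p under 0.05; median log2 fold change 0.13), 19 mitochondrial aminoacyl-tRNA synthetases (3; 0.16), 18 genes of mitochondrial transcription and RNA processing (3; 0.04) or 5 ribosomal proteins with other names (0; 0.40). Among the last, Ptcd3, a pentatricopeptide protein of the small subunit, stood at 0.53 ± 0.26, and Aurkaip1 at 0.40 ± 0.20. Of the synthetases, Tars2 stood at 0.74 ± 0.23 and Aars2 at 0.79 ± 0.26. Over all 13719 genes tested, 2849 had an unadjusted p under 0.05 in this comparison. Of the 13 protein genes of the mitochondrial genome, which this ribosome translates, 0 passed and 0 had an unadjusted p under 0.05, at a median of -0.05. In TZG against NC without MPS 14, no assembly, import, regulator, translation factor, synthetase or transcription gene passed in edgeR. In that order, 7, 5, 3, 1, 0 and 3 of them had an unadjusted p under 0.05, where 2602 of all 13719 genes did. The members' median of 0.46 lay above those of the lists in this paragraph and close to the 0.43 of import and chaperones; these differences were not tested.

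The nuclear genes of the respiratory chain had a higher median than the members. Without MPS 14, 19 of 81 of them rose in MPS against NC and 0 fell, at a median log2 fold change of 0.80. Of 84 cytosolic ribosomal protein genes, 9 rose and 0 fell, at 0.39. Over all genes tested, 2.06% were called higher and 0.321% lower. Within each library, the summed CPM of the respiratory chain genes was 7.28, 6.97, 6.30 and 6.30 times that of the members in NC 4, 5, 6 and 7. It was 8.11 and 8.32 times in MPS 10 and 11, and 8.65, 8.08 and 7.59 times in TZG 26, 27 and 43. Apart from MPS 14, at 4.28, every MPS and TZG library was above every NC library in this ratio, which was not tested.

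Mrps11 and Mrpl46, of the small and the large subunit, start head to head on chromosome 1. The 233 bases between their starts (GRCr8, RefSeq) hold 6 CG pairs and are shown because the pair shares them.
Mrps11 and Mrpl46, chr1:142117031-142117263, plus strand: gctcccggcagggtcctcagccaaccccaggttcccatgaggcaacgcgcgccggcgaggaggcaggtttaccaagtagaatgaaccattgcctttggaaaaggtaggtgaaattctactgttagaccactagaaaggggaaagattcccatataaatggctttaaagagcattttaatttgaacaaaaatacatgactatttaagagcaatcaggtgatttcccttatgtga
Mrps11 was at 38.3, 35.7, 38.7 and 27.6 CPM in NC, 42.4, 42.5 and 11.8 in MPS 10, 11 and 14, and 60.4, 40.8 and 21.9 in TZG. Mrpl46 was at 24.2, 15.1, 20.04 and 24.9 CPM in NC, 19.9, 19.6 and 26.5 in MPS, and 19.95, 21.8 and 15.5 in TZG. By these values, in MPS 14 Mrps11 was at its lowest and Mrpl46 at its highest of the 10 libraries. With TMM factors both were at their lowest there, at 6.77 and 15.2 normalised CPM, so the order of Mrpl46 turned with the scaling. No test of the pair was made. In all, 16 of the 58 members with a promoter entry have a protein-coding start on the opposite strand within 1000 bases upstream.

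Members differed in how much they varied over the 9 libraries other than MPS 14. By library totals, the SD of log2(CPM + 0.5) was largest in Mrpl54 (0.70), Mrps24 (0.67) and Mrpl14 (0.65). It was smallest in Mrps18a (0.15), Mrps14 (0.16) and Mrpl18 (0.17). No SD is given for TMM-normalised values. With TMM factors Mrps18a had 72.5, 59.7 and 68.0 normalised CPM in TZG 26, 27 and 43. It had 51.3, 41.7, 40.7 and 46.1 in NC, so TZG and NC did not overlap. Mrps14, a small subunit protein of bacterial descent, had 58.4, 58.4, 53.0 and 61.7 normalised CPM in NC and 56.8 and 60.2 in MPS 10 and 11. The NC and MPS values overlapped. In TZG 26, 27 and 43 it had 74.6, 56.9 and 69.4, so TZG 26 and TZG 43 lay above all NC and MPS values. The spread of Mrps24, a small subunit protein of bacterial descent, came from a single NC library: it had 15.8, 59.4, 18.5 and 11.1 CPM in NC 4, 5, 6 and 7 and 13.6 to 25.1 CPM in the MPS and TZG libraries other than MPS 14.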

How the data were processed

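Per the labels' protocols, an RNeasy kit was used for the RNA of the 10 muscle samples and a SMARTER mRNA-Seq kit for the libraries. The authors deposited a whole-number count and an FPKM value per gene and sample, per the file headers. Where a gene had 50 or more counts, its FPKM matched count over length and total within 0.1% in 100% of cases. The submitters' processing notes name StringTie 1.3.3b, edgeR 3.30.3, HISAT2 and fastp; the genome build, the options and the use of strand are not given in the sources used here. Of the value columns, 0 could not be matched to a sample.

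Counts were fitted with edgeR 4.0.16 in R 4.3.3 (filterByExpr, TMM factors, quasi-likelihood F test, two-sided, all 3 groups in 1 fit), with p adjusted by Benjamini-Hochberg over every gene in the fit at a threshold of 0.05, with all libraries and without MPS 14. The SE of a log2 fold change came from the F statistic. Normalised CPM are CPM on the TMM-scaled total. Alternatives were DESeq2 1.42.0, limma 3.58.1 with voom, RLE factors, library totals, no mitochondrial transcripts, other filters, length offsets, only the compared groups, each library left out and, added after the data were seen, robust spread and TMM factors for sums and for the place of MPS 14. The fits were run on simulated counts in which libraries of a group shared their means. Such counts do not bear on an unlike library such as MPS 14 or on the choice of scaling. Figures used Python 3.11.15 and matplotlib 3.10.9.

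The members and all gene lists were chosen with earlier results of these data known. Named members are those past the threshold, or else the lowest p in each direction, the 5 highest and 3 lowest by FPKM, the 3 most and 3 least variable, and 16 role genes; of each pathway list, up to 4 past the threshold, or else the lowest p. Mrpl38, Mrpl10, Mrps11, Mrpl46, Glycam1, Gabpa and Yy1 were chosen after their values were seen. Of the members, 10 overlap another protein-coding feature: Mrpl13, Mrpl21, Mrpl43, Mrpl47, Mrpl49, Mrpl57, Mrps18a, Mrps2, Mrps28 and Mrps7. Their counts are uncertain.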

Additional observations from a re-analysis of the deposited data

Results flagged for a closer look

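Mrps24 stood at 59.4 CPM in NC 5 and at 11.1 to 18.5 CPM in the other 3 NC libraries. The gap to the nearest of these took 0.848 of the range of the group, above Dixon's 95% critical value for 4 samples. Chance flags about 1 in 20 groups, so some flag among 73 members would be common.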

How the results depend on the processing

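No paired analysis was possible because no title number is shared by any pair of libraries. Without MPS 14, in MPS against NC, DESeq2 called 1084 of 13719 genes in either direction, and a mean of at least 5 CPM gave 429 of 9215. Length offsets gave 203 of 13719 and a fit of the compared groups only gave 1181 of 13411. Library totals gave 46 of 13719, with a members' median log2 fold change of 0.18. In that order, the count of members called higher was 13, 9, 2, 15 and 0. It ran from 0 to 2 with 1 NC library left out, where the count over all genes ran from 2 to 85. For TZG against NC without MPS 14, DESeq2 called 840 of 13719 genes and a mean of at least 5 CPM gave 57 of 9215. A fit of the compared groups only gave 3 of 13057, and library totals 12 of 13719 (members' median -0.0126). In that order, the count of members called higher was 12, 2, 0 and 0. It ran from 0 to 6 with 1 library left out, where the count over all genes ran from 0 to 239. With all libraries, the members' count for MPS against NC ran from 0 to 5 in the same way. The 5 were called without MPS 14, where 326 of all 13719 genes passed. The median of TZG against MPS without MPS 14 ran from -0.29 (without TZG 26) to 0.053 with 1 library left out.

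Small fold changes of named members changed sign. With library totals, Mrpl54 (-0.0195) and Mrps16 (-0.0924) did so in TZG against MPS, and without MPS 14 Mrpl14 (-0.0399) in TZG against MPS and Mrpl3 (-0.0859) and Mrps18c (-0.0147) in MPS against NC. With 1 library left out, TZG against MPS ran from -0.43 to 0.65 for Mrpl54, -0.25 to 0.64 for Mrps16, -0.23 to 0.69 for Mrps26, -0.24 to 0.63 for Mrpl20 and -0.55 to 0.0324 for Mrps10. Without TZG 26, Mrps26 was at -0.02, Mrpl54 at -0.31 and Mrps16 at -0.08 there. Without MPS 14, Mrps26 ran from -0.52 to 0.00772 and Mrpl14 from -0.0851 to 0.24 in TZG against MPS. In MPS against NC, Mrpl49 ran from -0.46 to 0.0718 and Mrps30 from -0.17 to 0.0198. Of the fold changes of named members under alternatives, 941 kept their sign and side of the threshold, 23 passed only under the alternative, 41 passed only in the fit reported and 17 changed sign. The cause was not tested. These counts rest on 2 to 4 libraries a group, and leaving 1 out decides most calls. Robust spread, chosen after seeing the data, called 7 members and 362 of all 13719 genes in MPS against NC without MPS 14.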
